A study of Aspergillus nidulans with 6 samples.

Results

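Polyketide synthases are large enzymes that build the carbon backbone of a polyketide by joining small acyl units. In filamentous fungi their genes usually lie in clusters with the genes of the enzymes that modify the product, and many of these clusters are transcribed only under particular conditions. Non-reducing synthases make aromatic products, highly reducing synthases make reduced chains, and a hybrid enzyme joins the chain to an amino acid. In the sterigmatocystin pathway a dedicated fatty acid synthase of an alpha and a beta subunit makes the hexanoyl starter unit that the polyketide synthase extends.

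The genes described here were the polyketide synthase genes of Aspergillus nidulans other than those for emericellamide, aspernidine and the conidial pigment, together with the sterigmatocystin fatty acid synthase subunits. They were found by gene number. Of 30 listed genes, 28 matched a feature among the 10983 in the files: 26 polyketide synthase genes and the 2 subunit genes stcJ (AN7815, alpha) and stcK (AN7814, beta). AN7838 and AN9217 matched no feature and were not analysed here. The 28 genes lie on all 8 chromosomes, with 6 on chromosome IV and 5 on chromosome VII. Their features span 1241 to 11936 bp, and the 3 shortest are AN5475 (1241 bp), AN7489 (1888 bp) and AN4827 (3406 bp).

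RNA was sequenced from 3 libraries of strain LO1362, which carries mcrA (genotype mcrA+, called WT here), and 3 of strain LO8158, labelled as deleted for mcrA (genotype mcrA-). The gene mcrA encodes a regulator of secondary metabolism, and the labels state that the second strain's mutation turns such production on. All libraries came from mycelium grown for 1 day at 37 °C in liquid glucose minimal medium (1000000 spores in 150 ml). Uridine, uracil, pyridoxine and riboflavin were supplied to both strains. With 1 strain for each genotype, the deletion and whatever else sets the strains apart cannot be told apart. Nothing says that the replicates were separate cultures, and p-values therefore measure the spread between libraries, which may be technical.

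Total counts ranged from 3374534 to 6051839 per library. WT replicate 3 stood apart from the other libraries on the second principal component (-38.0, which held 10.5% of the variance). The mitochondrial share of counts was 1.06% in mcrA- replicate 1 and between 0.0593% and 0.159% elsewhere. The locus taken as mcrA from background knowledge, AN8694, had 674, 903 and 655 counts in WT and 280, 422 and 273 in the mcrA- libraries, which is 152 ± 6.21 against 72.7 ± 14.6 CPM. Counts at that level go against a loss of the whole gene. The labels name no locus, and whether the counts lie outside the deleted stretch was not tested. Below, mcrA- therefore means the libraries labelled so. Of 7852 features tested, 16.1% passed as higher in the mcrA- group and 13.7% as lower, at an adjusted p under 0.05 in the quasi-likelihood test of edgeR.

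Most of the synthase genes were expressed weakly. Levels are given as counts per 1000000 counts (CPM). A group with 0 counts in 3 libraries could still hold up to 3 counts, or 0.203 CPM in WT and 0.222 CPM after deletion. Such limits, and the intervals of count ratios below, cover counting error only. No synthase gene stood above the 47.4th percentile of all features in WT mean CPM. In WT 13 of the 28 genes had at most 3 counts over the 3 libraries, and in the mcrA- group 6 did. All 7 genes that were over this limit in only 1 group were over it in the mcrA- libraries. Among all 2417 features with at most 3 counts in WT, 20.6% exceeded 3 counts in the mcrA- libraries, against 7 of 13 synthase genes. These features were not matched to the synthase genes in length. Some of the 7 genes passed the limit by little, such as AN1784 (2 counts in WT and 4 in mcrA-) and pkbA (2 and 6).

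The genes fell into 4 classes by their counts and the test. Called higher in the mcrA- libraries, and termed activated, were 5 genes: AN9005, AN7084, mdpG, AN4827 and pkhA. Another 7 had over 3 counts in the mcrA- group alone and too few counts to be tested. A basal class of 10 genes had over 3 counts in both groups and no call. The remaining 6, termed silent, had at most 3 counts in each group. None of the 28 was called lower.

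**Figure D1:**
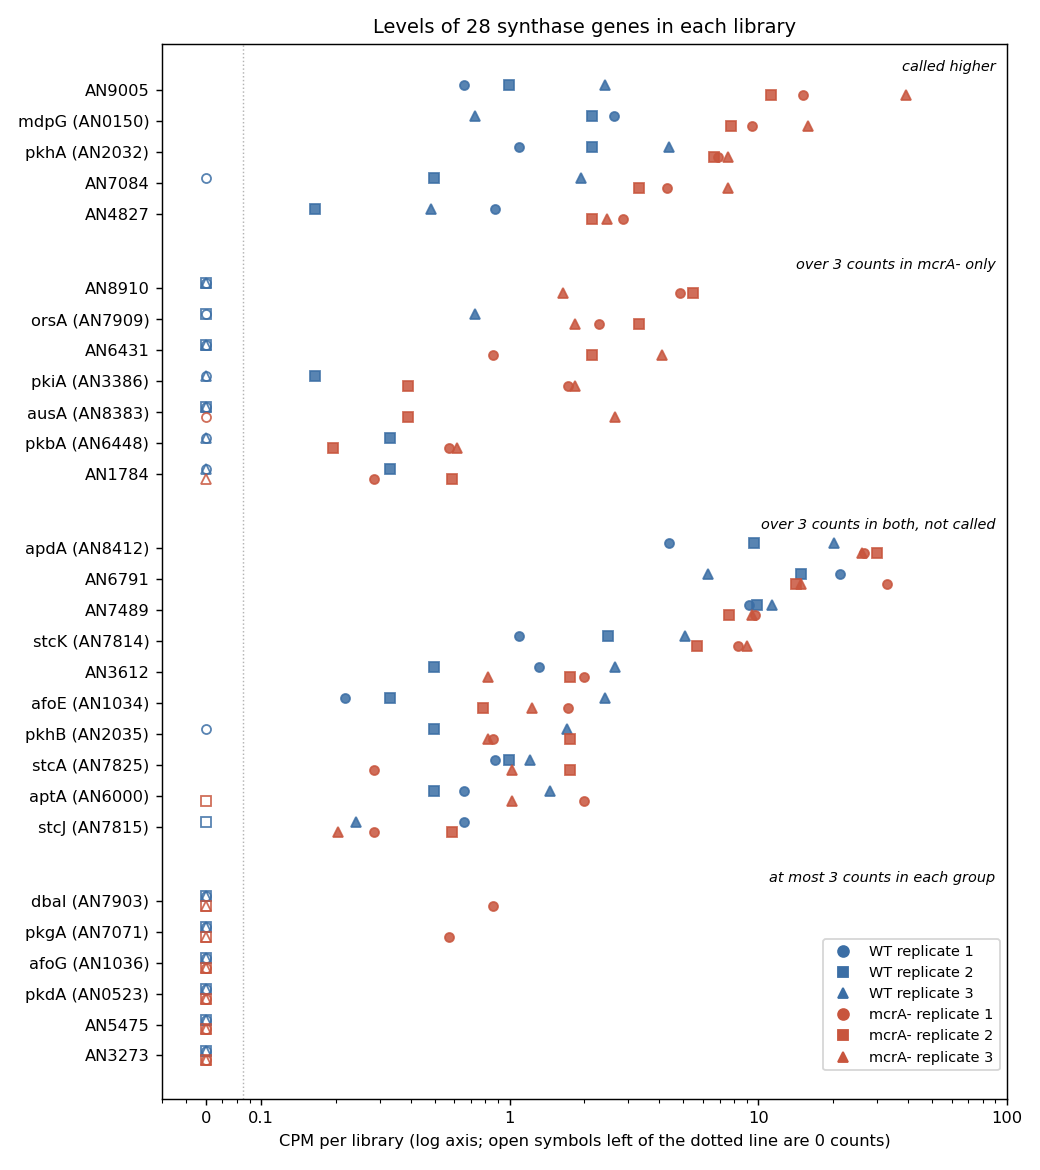
Each symbol is the level of 1 gene in 1 library, in CPM on a log axis, with blue for WT and red for mcrA- and a symbol shape for each replicate number; open symbols left of the dotted line stand for 0 counts. In the class called higher, which was picked by the test on these same libraries, every red symbol lies to the right of every blue symbol of the same gene. In the lowest class 4 genes have open symbols only.

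The count filter kept 9 of the 28 genes and left 19 untested. A gene with few counts in WT, such as AN9005, AN7084 or AN4827, passed it only through the mcrA- libraries. The 5 calls among 9 tested genes are therefore a description and not support for a general rise. Without the filter 24 genes could be fitted, and 8 were called higher and 0 lower, where all features gave 13.3% higher and 11.3% lower. The DESeq2 Wald test called 10 higher and 0 lower, against 15.8% and 14.0% of all features. Scaling by library size alone gave 7 higher and 0 lower, against 21.1% and 8.14%. The median log2 fold change of the 24 genes was 1.52 in the fit without the filter, against 0.06 for all 9629 features fitted. Of the 24 genes, 5 had 0 counts in WT and entered this fit only through the mcrA- libraries. The 8 calls and the median are therefore a description too. With genes that had 0 counts in WT set to their lower bound the median was 1.43 over 22 genes. This left out 2 genes that had no such bound, pkgA and dbaI. Groups did not overlap for 11 of the 24 genes with any count, all 11 higher in the mcrA- libraries. Over all features with any count 23.6% did not overlap and were higher, and 20.2% were lower.

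The summed level of the 28 genes was 44.9, 46.4 and 63.2 CPM in WT replicates 1, 2 and 3, and 135, 108 and 150 CPM in the mcrA- libraries. The mcrA- libraries were all above the WT libraries. The mean went from 51.5 ± 10.2 to 131 ± 21.5 CPM (SD, n = 3 each), a ratio of 2.54. The genes that held most of this sum differed between libraries of a group. AN6791 held 47.6%, 32.0% and 9.96% of it in WT replicates 1, 2 and 3, where apdA held 9.71%, 20.6% and 31.8%. AN7489 held 18.0% to 21.4% in WT. In mcrA- replicates 1, 2 and 3 AN9005 held 11.2%, 10.5% and 26.2%, and apdA held 19.7%, 27.8% and 17.5%. AN6791 was the highest of these in replicate 1 (24.3%), apdA in replicate 2 and AN9005 in replicate 3. The 5 activated genes together stood at 5.23 to 9.93 CPM in WT and at 31.2 to 72.7 CPM in the mcrA- libraries. They were picked by the test on these same libraries, so a higher sum in mcrA- follows from that choice.

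**Figure D2:**
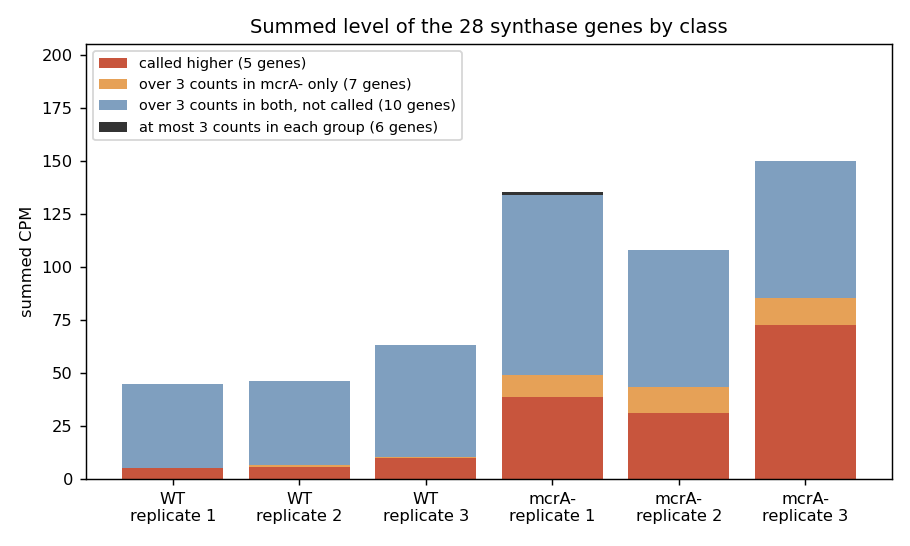
Bars give the summed CPM of the 28 genes in each library, stacked by class. The 3 mcrA- libraries reach 108 to 150 CPM and the WT libraries 44.9 to 63.2 CPM. The class called higher, picked by the test on these same libraries, contributes least in WT replicate 1 and most in mcrA- replicate 3.

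AN9005 (chromosome VII, 152386 to 160635, plus strand), a synthase gene with no product named in the sources used here, had the largest rise among the tested synthase genes. It had 3, 6 and 10 counts in WT replicates 1, 2 and 3, and 53, 58 and 192 counts in the mcrA- libraries. The groups did not overlap, and mcrA- replicate 3 was the highest of the 6 libraries. The level went from 1.36 ± 0.939 to 21.9 ± 15.2 CPM (SD, n = 3 each), with a log2 fold change of 4.04 (SE 0.654; edgeR's quasi-likelihood test, adjusted p = 0.00507). An exact two-sided permutation test on the CPM gave p = 0.1, the smallest that 3 against 3 libraries allow. The call held in all 12 alternative fits. Without mcrA- replicate 3 the log2 fold change was 3.30, and without WT replicate 3 it was 4.67.

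The gene mdpG (AN0150; chromosome VIII, 4443884 to 4449595, minus strand) encodes the non-reducing synthase of the monodictyphenone pathway, which makes an anthraquinone precursor. Its counts were 12, 13 and 3 in WT and 33, 40 and 77 in the mcrA- libraries. WT replicate 3 was the lowest library and mcrA- replicate 3 the highest, with no overlap. The level rose from 1.83 ± 0.984 to 11.0 ± 4.21 CPM (log2 fold change 2.55 with SE 0.469; edgeR's quasi-likelihood test, adjusted p = 0.00774). This call also held in all 12 alternative fits, with log2 fold changes from 2.18 to 2.84. The other 11 genes listed for this pathway had few counts. None passed the filter, 8 had at most 3 counts in each group, and together they held 2 counts in WT and 39 in the mcrA- libraries. Of these, AN10021 had 0 counts in WT and 6, 2 and 11 in the mcrA- libraries, at least 6.92-fold higher (4.09-fold without WT replicate 2, 4.56-fold without mcrA- replicate 3). It was called higher without the filter (adjusted p = 0.0366, edgeR) and by the DESeq2 Wald test (adjusted p = 0.0127). The regulator gene mdpE, 2709 bp from mdpG, had 0 counts in WT and 0, 5 and 5 in the mcrA- libraries. Per kb of feature, mdpG stood at 1.93 CPM and mdpE at 0.42 CPM in that group, a pooled ratio of 4.16 (95% interval 2.20 to 8.86).

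AN7084 (chromosome IV, 1079494 to 1087114, minus strand) had 0, 3 and 8 counts in WT and 15, 17 and 37 in the mcrA- libraries. All mcrA- libraries were above all WT libraries, and within each group replicate 3 was the highest. The level rose from 0.811 ± 1.01 to 5.06 ± 2.23 CPM (log2 fold change 2.69 with SE 0.800; edgeR's quasi-likelihood test, adjusted p = 0.0409). Of the 6 fits that left out 1 library it held only without WT replicate 3, where the log2 fold change was 4.07 (adjusted p = 0.0111, edgeR). In the other 5 adjusted p lay between 0.0706 and 0.14.

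AN4827 (chromosome III, 857929 to 861334, plus strand) had 4, 1 and 2 counts in WT and 10, 11 and 12 in the mcrA- libraries. These are small counts, and the mcrA- libraries were close to each other. The level rose from 0.507 ± 0.354 to 2.49 ± 0.359 CPM (log2 fold change 2.29 with SE 0.558; edgeR's quasi-likelihood test, adjusted p = 0.0206). The call held without WT replicate 1 (2.93) and without WT replicate 3 (2.30). It was lost without WT replicate 2 (1.80, adjusted p = 0.0725) and without mcrA- replicate 1, 2 or 3 (adjusted p from 0.0557 to 0.0587, edgeR).

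The neighbouring genes pkhA (AN2032, minus strand) and pkhB (AN2035, plus strand) lie 3301 bp apart on chromosome VII and encode a pair of synthases. The pkhA counts were 5, 13 and 18 in WT and 24, 34 and 37 in the mcrA- libraries. The groups did not overlap in CPM, and WT replicate 3, at 4.36 CPM, came nearest to the mcrA- libraries. The level rose from 2.53 ± 1.67 to 7.02 ± 0.494 CPM (log2 fold change 1.49 with SE 0.450; edgeR's quasi-likelihood test, adjusted p = 0.0432). The call was lost without the count filter (adjusted p = 0.0501). With 1 library left out it held only without WT replicate 3 (2.06, adjusted p = 0.00931), and adjusted p was 0.0866 to 0.139 in the other 5 fits. The counts of pkhB were 0, 3 and 7 in WT and 3, 9 and 4 in the mcrA- libraries, and its groups overlapped. Per kb, pkhA was 4.15 times the level of pkhB in WT (95% interval 2.02 to 9.38) and 6.85 times in the mcrA- libraries (4.01 to 12.5). The WT ratio was 6.92 without replicate 3, and whether the ratios differ was not tested.

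**Figure D3:**
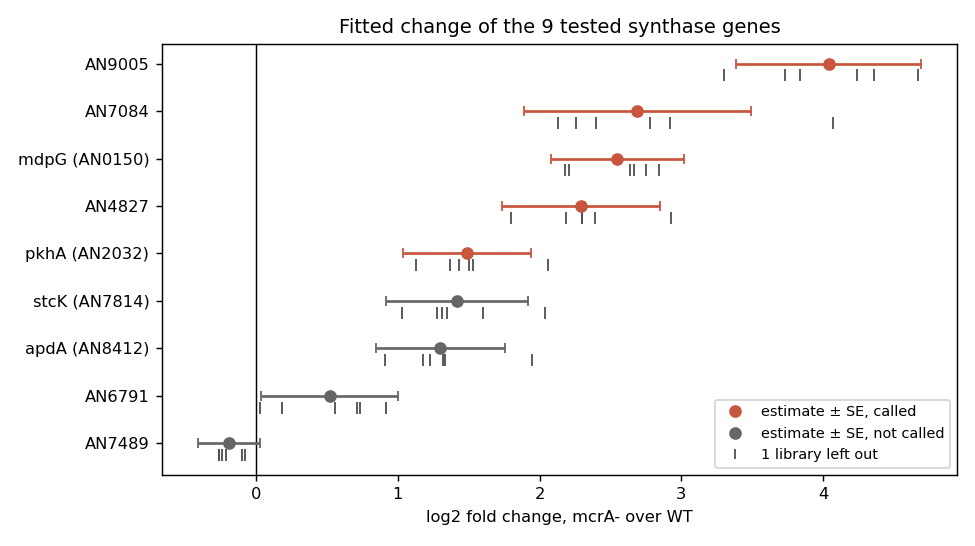
Points give the log2 fold change of mcrA- over WT for the 9 tested genes with bars of 1 SE, red where the gene was called and grey where it was not, and ticks below each point give the fits that left out 1 library. Estimates run from -0.19 for AN7489 to 4.04 for AN9005, and the tick farthest to the right of AN7084, at 4.07, is the fit without WT replicate 3.

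Of the 7 genes over 3 counts in the mcrA- group alone, 3 had 0 counts in every WT library. The first, AN8910 (chromosome VII, 481247 to 489372, plus strand), had 17, 28 and 8 counts in the mcrA- libraries. It was thus at least 19.3-fold higher there, with the floor of 3 counts taken over the WT group. Without WT replicate 2, the deepest library, the bound was 11.4-fold. It was called higher in all 6 alternative fits that tested it, among them the fit without the count filter (adjusted p = 0.00841, edgeR). The second, AN6431 (chromosome I, 206271 to 214310, plus strand), had 3, 11 and 20 counts in the mcrA- libraries, at least 12.4-fold higher. Its bound was 7.31-fold without WT replicate 2 and 7.99-fold without mcrA- replicate 3. Without the filter it was called (adjusted p = 0.0173, edgeR), and it was called in 6 of the 7 alternative fits that tested it, all but that without WT replicate 2 (0.0517). In both genes every mcrA- library had counts. With 0 counts in WT, both entered these fits only through the mcrA- libraries. Their calls and the tallies of fits are therefore a description.

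The third was ausA (AN8383), the synthase gene for the dimethylorsellinic acid backbone of austinol, with 0, 2 and 13 counts in the mcrA- libraries. Its groups overlapped at 0. Pooled, it was at least 5.46-fold higher, or 3.23-fold without WT replicate 2, and without mcrA- replicate 3 its counts did not exceed the floor. It was not called without the filter (adjusted p = 0.117, edgeR). The other 10 austinol genes listed had too few counts to be tested. They held 7 counts over WT and 67 over the mcrA- libraries, and 57 of the latter lay in replicate 3.

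The remaining 4 genes of this class had 1 to 3 counts in WT. The gene orsA (AN7909; chromosome II, 207766 to 214402, minus strand), the synthase gene of orsellinic acid, had 0, 0 and 3 counts in WT and 8, 17 and 9 in the mcrA- libraries. Every mcrA- library was above WT replicate 3, which held all WT counts. The pooled ratio was 12.4 (95% interval 3.90 to 63.0), and without WT replicate 3 the lower bound was 8.92-fold. Leaving out WT replicate 2 gave a ratio of 7.31 (2.30 to 37.2). In the fit without the filter orsA was called higher (adjusted p = 0.038, edgeR), but in the 4 fits with 1 library left out that tested it, only that without WT replicate 3 called it (0.0091; 0.0529 to 0.0912 in the others).

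The synthase gene pkiA (AN3386, chromosome VI) had 0, 1 and 0 counts in WT and 6, 2 and 9 in the mcrA- libraries. The groups did not overlap in CPM. The pooled ratio was 18.6 with a wide interval (2.91 to 776), and without WT replicate 2, which held the WT count, the gene was at least 3.66-fold higher. It was called higher without the filter (adjusted p = 0.0423, edgeR) and by the DESeq2 Wald test (adjusted p = 0.0454). The counts of pkbA (AN6448, chromosome I), the synthase gene of the cichorine pathway, were 0, 2 and 0 in WT and 2, 1 and 3 in the mcrA- libraries. AN1784 (chromosome VII) had 0, 2 and 0 against 1, 3 and 0. The groups of both genes overlapped, and a difference was not detectable at this depth: the pooled ratios had intervals of 0.586 to 33.2 and 0.313 to 24.2.

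The basal class holds the synthase genes with the highest WT levels. The hybrid synthase gene apdA (AN8412; chromosome V, 396316 to 408251, plus strand), which makes the core of aspyridone, had 20, 58 and 83 counts in WT and 93, 154 and 128 in the mcrA- libraries. In CPM the WT libraries were spread from 4.36 to 20.1, while the lowest mcrA- library stood at 26.2, so the groups did not overlap. The log2 fold change of 1.30 (SE 0.456) did not pass (adjusted p = 0.0678, edgeR's quasi-likelihood test). It passed without WT replicate 3 (1.95, adjusted p = 0.00496), with library size alone as scaling (0.028) and by the DESeq2 Wald test (0.0336). The other 7 aspyridone genes listed, of which 1 was tested and 0 were called, held 134 counts in WT and 121 in the mcrA- libraries. AN8415 took 117 and 111 of these, and the pathway's regulator gene apdR had 11 and 5.

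AN6791 (chromosome I, 3181548 to 3189524, plus strand) had 98, 90 and 26 counts in WT and 115, 73 and 73 in the mcrA- libraries. Its groups overlapped, with replicate 1 the highest of each. Mean CPM was 14.2 ± 7.56 in WT against 20.7 ± 10.6 in mcrA- (log2 fold change 0.52 with SE 0.483; edgeR's quasi-likelihood test, adjusted p = 0.443). Its feature shares 52 bp with AN6792 on the opposite strand, and whether counting used strand is not stated.

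AN7489 (chromosome IV, 1703511 to 1705398, plus strand), whose feature is only 1888 bp long, had the smallest fold change of the 9 tested genes and the only negative one. It had 42, 60 and 47 counts in WT and 34, 39 and 46 in the mcrA- libraries. Mean CPM was 10.2 ± 1.13 in WT against 8.91 ± 1.15 in mcrA- (log2 fold change -0.19 with SE 0.219; edgeR's quasi-likelihood test, adjusted p = 0.542). Per kb of feature it was the highest of the 28 genes in both groups, with 5.38 (WT) and 4.72 (mcrA-) CPM per kb. In the mcrA- libraries AN9005 stood at 1.84, 1.37 and 4.77 CPM per kb and AN6791 at 4.12, 1.78 and 1.87, so their order changed with the library. There apdA lay between 2.20 and 2.51 CPM per kb and mdpG between 1.36 and 2.76.

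Of the low basal genes, afoE (AN1034), the non-reducing synthase gene of asperfuranone, had 1, 2 and 10 counts in WT and 6, 4 and 6 in the mcrA- libraries. WT replicate 3 was the highest of the 6 libraries. Its partner afoG (AN1036), the highly reducing synthase gene 4542 bp away on the opposite strand, had 0 counts in all 6. The other 6 asperfuranone genes listed, among them the activator gene afoA with 0 counts, held 1 count in WT and 3 in the mcrA- libraries. The asperthecin synthase gene aptA (AN6000) had 3, 3 and 6 counts in WT and 7, 0 and 5 in the mcrA- libraries. AN3612 (chromosome II) had 6, 3 and 11 against 7, 9 and 4. The pooled ratio was 1.09 for both aptA and AN3612, with intervals of 0.449 to 2.66 for aptA and 0.558 to 2.14 for AN3612. It rested on single libraries: aptA gave 0.614 without mcrA- replicate 1 and 1.76 without mcrA- replicate 2, and AN3612 gave 1.75 without WT replicate 3. Of the 2 other asperthecin genes, aptC was tested and not called (1.19, SE 0.52; adjusted p = 0.123, edgeR).

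In the sterigmatocystin cluster on chromosome IV the synthase gene and its fatty acid synthase partners differed in level. The polyketide synthase gene stcA (AN7825) makes the first intermediate of the pathway, norsolorinic acid, and had 4, 6 and 5 counts in WT and 1, 9 and 5 in the mcrA- libraries. The groups overlapped, with a pooled ratio of 1.09 (95% interval 0.498 to 2.40), or 0.705 without mcrA- replicate 2. The beta subunit gene stcK had 5, 15 and 21 counts in WT and 29, 29 and 44 in the mcrA- libraries. In CPM every mcrA- library was above every WT library. Mean CPM was 2.89 ± 2.03 in WT against 7.65 ± 1.77 in mcrA- (log2 fold change 1.42, SE 0.500), which did not pass (adjusted p = 0.0684, edgeR's quasi-likelihood test). It passed without WT replicate 3 (2.04, adjusted p = 0.015) and with library size alone (0.0354).

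The alpha subunit gene stcJ, which starts 479 bp from stcK on the opposite strand, had 3, 0 and 1 counts in WT and 1, 3 and 1 in the mcrA- libraries. Its groups overlapped. Per kb of feature, stcK was 8.08 times the level of stcJ in WT (95% interval 2.92 to 31.0) and 16.1 times in the mcrA- libraries (6.67 to 50.6). With so few stcJ counts these ratios moved with single libraries: in WT to 28.4 without replicate 1, 5.12 without replicate 2 and 5.25 without replicate 3, and in mcrA- to 28.8 without replicate 2. Relative to stcA it was 3.22 times as high per kb in WT (1.74 to 6.26) and 8.01 times in the mcrA- libraries (4.63 to 14.8; 14.3 without replicate 2). The subunits of the primary fatty acid synthase, which serves growth, were much more abundant: fasA stood at 93.1 CPM per kb and fasB at 111 CPM per kb in WT. Neither fasA (log2 fold change -0.24) nor fasB (-0.04) was called (adjusted p = 0.268 and 0.902, edgeR).

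Of the 18 other sterigmatocystin genes matched (19 listed), which held 214 counts in WT and 825 in the mcrA- libraries, 2 were tested and 1 was called higher. This was AN7822, with 0, 0 and 2 counts in WT and 24, 45 and 61 in the mcrA- libraries. It passed the count filter only through the mcrA- libraries. Its pooled ratio was 71.0 (19.3 to 593), falling to 41.9 without WT replicate 2, and the bound was 34.1-fold without WT replicate 3. The other, AN7805, had 27, 78 and 100 counts in WT and 86, 228 and 264 in the mcrA- libraries, without overlap in CPM. Its log2 fold change of 1.53 just missed the threshold (adjusted p = 0.0506, edgeR). It passed without the filter (0.0477), by the DESeq2 Wald test (0.0128), with library size alone (0.0235) and without WT replicate 3 (2.11, adjusted p = 0.0109) or mcrA- replicate 1 (1.79, adjusted p = 0.0428). The adjacent genes AN7807 to AN7812 had 0 counts in all 6 libraries, as did AN7816 beside stcJ. The pathway activator gene aflR (AN7820) had 0 counts in WT and 0, 2 and 11 in the mcrA- libraries.

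**Figure D4:**
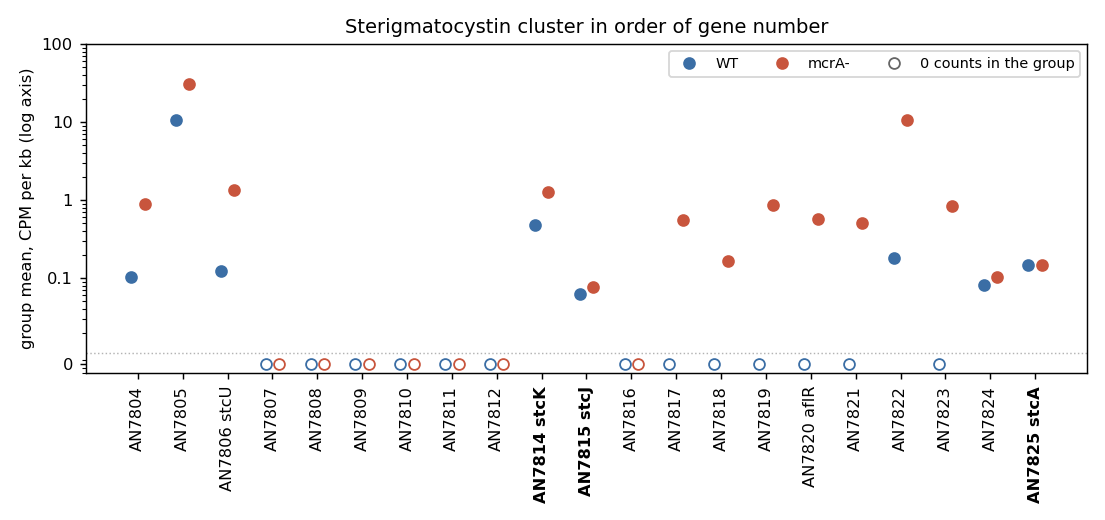
The mean level of each matched sterigmatocystin gene in each group, in CPM per kb of feature on a log axis, is plotted in order of gene number, with the 3 synthase genes in bold and open symbols for 0 counts in the group. The synthase gene stcK stands at 0.481 and 1.28, above stcJ and stcA in both groups, and stcA stands at 0.145 in both.

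The silent class held dbaI, pkgA, afoG, pkdA (AN0523), AN5475 and AN3273. The last 4 had 0 counts in all libraries. For AN3273 this is uncertain to the extent that 1580 bp of its feature are shared with AN12188 on the same strand, which had 0 counts too. The synthase gene dbaI (AN7903) of the dba cluster, which makes a benzaldehyde derivative, had 3 counts in mcrA- replicate 1 and 0 elsewhere. The synthase gene pkgA (AN7071) had 2 counts in that same library and 0 elsewhere. Both tested genes among the 10 others listed for the dba cluster were called higher, against 16.1% of all features tested. Both passed the count filter only through the mcrA- libraries, so these calls are a description. The regulator gene dbaA went from 1, 1 and 4 counts to 24, 15 and 20 (log2 fold change 3.37, SE 0.660; adjusted p = 0.00967, edgeR). Its value was 2.91 without WT replicate 2 and 4.41 without WT replicate 3. AN7895 went from 7, 0 and 10 to 35, 35 and 59 (2.96, SE 0.765; adjusted p = 0.0253, edgeR), with 2.27 without WT replicate 2, 3.77 without WT replicate 3, and its call lost without WT replicate 1 or any of the mcrA- libraries (0.0555 to 0.0737).

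In the orsellinic acid cluster 1 of the 3 tested genes beside orsA was called higher. It was AN7912, with 0 counts in WT and 13, 32 and 22 in the mcrA- libraries, at least 24.4-fold higher, or 14.4-fold without WT replicate 2. AN7912 thus passed the count filter only through the mcrA- libraries. In the cichorine cluster 1 of 6 other genes was tested and 0 were called, and AN6443 alone held 736 of 740 WT counts and 624 of 632 counts in the mcrA- libraries.

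The genes within 3 gene features of a synthase gene on each side were examined by a rule chosen after the values had been seen. Beside the 5 activated genes, 13 of 30 neighbours were tested, of which 4 were called higher and 1 lower (16.1% and 13.7% over all features tested). Beside the basal genes 23 were tested, with 4 higher and 3 lower. Synthase genes that are neighbours of each other are included in these counts. The activated gene pkhA is 1 of the 4, as a neighbour of pkhB, and stcK was tested as a neighbour of stcJ. Neighbours with few counts in WT, such as AN9006, AN10600 and AN7822, passed the count filter only through the mcrA- libraries. The numbers of neighbours called higher, here and below, are therefore a description. Beside the genes with over 3 counts in the mcrA- group alone 10 were tested, with 3 higher and 2 lower, and beside the silent genes 7, with 1 higher and 1 lower. The last were AN7074 near pkgA (5.72, adjusted p = 0.000941, edgeR) and AN7904 next to dbaI (-2.95, adjusted p = 0.00553, edgeR). Of the neighbours of basal genes, AN7822 near stcA, described above, rose most. AN11872 near apdA fell most (-1.87, adjusted p = 0.00945, edgeR). Near AN1784, AN12307 rose (2.83, adjusted p = 0.0024, edgeR) and AN12306 fell (-1.18, adjusted p = 0.0364, edgeR). On either side of pkiA, AN3385 rose (1.95, adjusted p = 0.0265, edgeR) and AN3387 fell (-1.60, adjusted p = 0.00352, edgeR). The calls of AN12306 and AN3385 were each lost without WT replicate 2 or any of the mcrA- libraries. Next to AN9005, AN9006 had 0 counts in WT and 31, 30 and 89 in the mcrA- libraries, at least 54.6-fold higher. That bound was 32.3-fold without WT replicate 2 and 34.8-fold without mcrA- replicate 3. AN9003, 3715 bp away on the other side, rose by 2.15 on the log2 scale (SE 0.301; adjusted p = 0.00316, edgeR), whereas AN9004, which lies between AN9005 and AN9003, did not pass (0.19; adjusted p = 0.627, edgeR). Beside AN4827, AN10600 rose (2.86, SE 0.445) and AN4825 fell (-1.55, SE 0.382), with adjusted p = 0.00436 and 0.0217 (edgeR). The call of AN4825 was lost without mcrA- replicate 2 or 3. Beside AN7084, AN7086 rose by 1.48 (SE 0.359; adjusted p = 0.0202, edgeR), a call lost without WT replicate 2 or mcrA- replicate 3. No neighbour of mdpG had enough counts to be tested.

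Of 4 genes that supply or activate polyketide synthases, 0 were called. These were npgA, which encodes the enzyme that attaches the phosphopantetheine arm of the carrier domains (11.7 ± 2.71 CPM in WT and 11.6 ± 0.455 in the mcrA- libraries), the acetyl-CoA carboxylase gene accA, and both ATP-citrate lyase subunit genes. Their log2 fold changes lay between -0.50 (AN2435) and -0.02 (npgA). AN2435, a lyase subunit gene, stood at 955 ± 134 CPM in WT against 676 ± 44.7 in mcrA-, without overlap (adjusted p = 0.0611, edgeR). It was called lower by the DESeq2 Wald test (adjusted p = 0.00984). The summed level of the 4 genes ranged over 2400 to 2780 CPM in WT and over 1900 to 2020 CPM in mcrA-, without overlap. Outside the 28 genes, the emericellamide synthase gene easB rose from 0.967 to 53.0 CPM per kb (log2 fold change 5.80, SE 0.523; adjusted p = 0.000941, edgeR). Its log2 fold change was 5.41 without WT replicate 1 and 6.58 without WT replicate 3. The pigment synthase gene wA rose from 0.427 to 1.03 CPM per kb. Aspernidine's pkfA had 0, 65 and 2 counts in WT and 355, 31 and 375 in the mcrA- libraries, and was not called (3.88; adjusted p = 0.0569, edgeR). WT replicate 2 held nearly all its WT counts: without that library it was called (7.88, adjusted p = 0.0343, edgeR), as it was without mcrA- replicate 2 (4.43, adjusted p = 0.0407) and with library size alone (0.0431).

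Libraries also differed in markers of asexual spore formation. Of 8 such genes, 5 were tested and 3 called higher (brlA, ivoB and wA). With few counts in WT, brlA passed the count filter only through the mcrA- libraries. The call of wA was lost without WT replicate 2 or 3 or mcrA- replicate 1 or 3, and that of ivoB without WT replicate 2 or mcrA- replicate 3. The summed level of the list ranged from 18.3 to 29.1 CPM in WT and from 30.9 to 93.2 CPM in the mcrA- libraries. The other tested genes of the list were not called. The spore pigment gene yA had 198 and 130 counts in all (log2 fold change -0.55, adjusted p = 0.2, edgeR). For rodA the counts were 0, 1 and 14 in WT and 1, 23 and 30 in the mcrA- libraries, with overlap (1.79, adjusted p = 0.297, edgeR). Not tested were abaA with 23 and 42 counts in all, wetA with 23 and 32, and dewA with 0 and 2. The sum was highest in mcrA- replicate 3, as were the levels of AN9005 and mdpG. Of the 24 synthase genes with any count, 9 were highest in replicate 3 among the mcrA- libraries, 8 in replicate 1 and 7 in replicate 2. The part of spore-forming cells in these results was not tested, and more such cells cannot be told apart from more RNA per cell.

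WT replicate 3 had the highest WT level in 12 of the 19 synthase genes with WT counts. Over all features with WT counts it was the highest in 41.2%. Among the exceptions, mdpG and AN6791 were lowest in that library. Leaving it out gave 10 synthase genes called higher of 12 tested: the 5 activated genes with apdA, stcK, orsA, AN6431 and AN8910, where 18.6% of all features were called higher and 14.6% lower. In that fit orsA, AN6431 and AN8910 had 0 WT counts and passed the filter only through the mcrA- libraries. The 10 calls are therefore a description and not support for a general rise. Only 3 synthase genes were called without WT replicate 2 or mcrA- replicate 3 (AN9005, mdpG and AN8910) and without mcrA- replicate 1 (AN9005, mdpG and AN6431). Without mcrA- replicate 2 there were 2 (AN9005 and mdpG). Over all features 758 were called higher without WT replicate 2, and 1122, 844 and 865 without mcrA- replicates 1, 2 and 3. In the same order 620, 901, 618 and 651 were called lower. With all libraries 1265 were higher and 1078 lower. The ratio of the summed level was 2.87 without WT replicate 3 and 2.54 with it. With mcrA- replicate 1, the library with the most mitochondrial counts, left out as well, 7 synthase genes were called. Over all features that fit called 1622 higher and 1361 lower.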

How the data were processed

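The authors deposited 1 table of raw read counts per library, with no normalization per the file headers. Per the labels' protocols, a directional kit was used on polyadenylated RNA. CASAVA and HISAT (version 1) are named in the submitters' processing notes. Not given in the sources used here are the counting tool, whether it used strand, how it treated multiply mapping reads, the annotation and the build. Coordinates are those of the files, and 0 columns were left unmapped.

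Libraries were grouped by their titles. The counts were fitted with edgeR 4.0.16 in R 4.3.3: TMM scaling, filterByExpr (minimum count 10), the quasi-likelihood test with genotype as the only term, and Benjamini-Hochberg adjustment over all 7852 tested features. A call is an adjusted p under 0.05, and a log2 fold change is mcrA- over WT. CPM uses TMM-scaled library sizes; per-kb levels divide by the feature's span, introns included. Count ratios are pooled over libraries with exact binomial 95% intervals. A floor is 3 counts over a group. Alternatives were RLE scaling, library size alone, no count filter, DESeq2 1.42.0, a replicate block and leaving out libraries. The fits were tested on simulated data.

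All listed synthase genes were named. Of each other list, up to 4 called genes were named, or 2 with most counts, with others chosen after their values were seen (aflR, afoA, AN7805, AN7807 to AN7812, AN7816, AN10021, npgA, accA, yA, rodA, abaA, wetA, dewA and the neighbours). The genes, lists and tests were chosen with earlier results of these data known.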

Additional observations from a re-analysis of the deposited data

How the results depend on the processing

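With the RLE scaling and the replicate block, 5 of the synthase genes were called higher, as reported, and 0 were called lower in any fit run. The count called higher was 8 without the count filter and 10 by the DESeq2 Wald test, which test more genes. With 1 library left out it ranged from 2 to 10, and with WT replicate 3 and mcrA- replicate 1 both left out, a choice made after seeing the data, it was 7. Over all features, calls ranged from 758 to 1496 higher and from 618 to 1171 lower with 1 library left out. With library size alone 639 were lower and 1660 higher (1078 and 1265 as reported); it shifted the median log2 fold change over tested features by 0.173, and 7 synthase genes were then called higher. The class with over 3 counts in the mcrA- group alone held 3 genes by the DESeq2 Wald test or without the filter, and 4 to 7 with 1 library left out. The basal class held 5 to 13 with 1 library left out and 6 with both libraries left out. A limit of 10 in place of 3 counts gave 9 silent and 8 basal genes. The fold change of AN6791 reversed to -0.30 with both libraries left out; the cause was not tested. Nothing in the labels says that same-numbered libraries are pairs, so the numbers were not treated as pairs. Deviations of same-numbered libraries from their group means correlated at 0.263, -0.0757 and 0.168. Those of differently numbered libraries correlated at -0.264 to 0.129, and these values do not settle whether the libraries pair. The replicate block gave 1333 features higher and 1170 lower, and it called AN7805 higher and AN2435 lower (adjusted p = 0.00822 and 0.0389, edgeR). Low counts limit what can be said of the 19 untested genes.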
